A study of Mus musculus with 2 samples.

Results

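The 9 genes described here make, break down or regulate the polyamines: the antizymes Oaz1 and Oaz2, the processed pseudogene Oaz1-ps, ornithine decarboxylase Odc1, antizyme inhibitor Azin1, S-adenosylmethionine decarboxylase Amd1, spermidine synthase Srm, spermine synthase Sms and spermidine/spermine acetyltransferase Sat1. They were chosen by name, and Oaz1-ps was selected on its difference between the libraries, so gene reads compared between libraries are a description for all of them. Reads given to the annotated gene of each name were taken, and all 9 genes had reads, among 18534 annotated genes with a read in either library. They held 1756 reads on 79 transcript models in replicate 1 and 1660 reads on 77 models in replicate 2.

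The series holds 2 long-read RNA libraries of 1 group, left cerebral cortex of adult B6CASTF1/J mice (F1 offspring of C57BL/6 and CAST) aged 18 to 20 months, each started from 2 µg of RNA, with no treatment and no control group. Both libraries are numbered as biological replicates but share 1 donor entry, and nothing states that they came from separate animals. SDs thus measure only the spread between these libraries. Intervals, counting SEs and p-values measure counting error only, and none of these values measures a spread between animals. The sex entry says female, while a free-text line says male. Xist had 34 and 29 reads, and Ddx3y, Kdm5d, Eif2s3y and Uty had 0 in both. Depth was 871524 reads in replicate 1 and 839150 in replicate 2. Levels are given as CPM, counts scaled to the same total of reads on annotated genes, of which there were 774629 and 679147. Single-exon models took 20.6% and 28.7% of the mouse reads, and models antisense to a gene 8.85% and 16.9%. Markers of neurons, astrocytes, oligodendrocytes and endothelium all had reads in both libraries, as did 3 of 4 for microglia and 3 of 3 for blood, whereas of the 3 choroid plexus markers Ttr had 18 and 5 reads and Folr1 and Otx2 had 0. The 4 neuronal markers summed to 5156 and 4754 CPM, and the 3 blood markers to 372 and 194 CPM; the part of cell composition in the member levels was not tested.

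Polyamines (putrescine, spermidine and spermine) are small cations that bind nucleic acids and ion channels. Odc1 makes putrescine from ornithine, Amd1 supplies the aminopropyl donor, and Srm and Sms add aminopropyl groups to give spermidine and then spermine; Sat1 acetylates spermidine and spermine for export or oxidation. Antizymes bind Odc1 and send it to the proteasome, and they are made only when the ribosome shifts by a base at the end of a short first reading frame, a step that polyamines stimulate; Azin1 resembles Odc1, lacks its activity and binds antizyme in its place.

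The frameshift site is shown first because the annotation of both antizymes is cut there and the models that hold the reads are not. Sequences are from the GENCODE M21 transcripts on mm10, written 5′ to 3′, with the stop codon that ends the first frame in capitals. The Oaz1 stretch lies at chr10:80828277-80828306 on the plus strand, the Oaz2 stretch at chr9:65686254-65686283 on the plus strand, and the stretch of Oaz1-ps aligned to it at chr17:17345925-17345954 on the minus strand.
Oaz1: gggcctcggtggtgctccTGAtgtccctca
Oaz2: gggcctctgtggtgctccTGAtgcccctca
Oaz1-ps: gggcctcggtggtgctccTGAtgtccctca
Over these 30 bases Oaz1-ps had 0 differences from Oaz1, and Oaz2 had 2. In the reference, the first frame of Oaz1 ran for 68 codons from its start codon to this TGA, and leaving out the T gave a single frame of 227 codons. The Oaz2 first frame, from the start codon of the annotated Oaz2-206, ran for 32 codons, and leaving out its T gave 189 codons.

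The antizymes were the most abundant of the 9 genes. Oaz1 (chr10:80826656-80829290, plus strand, 5 exons in its leading model) had 969 reads in replicate 1 and 925 in replicate 2, a mean of 1306 ± 78.5 CPM (SD, n = 2), place 53 among all genes. Oaz2 (chr9:65668001-65690300, plus strand) had 392 and 338 reads, 502 ± 5.92 CPM (SD, n = 2), place 245. Both libraries agree on this order: Oaz1 exceeded Oaz2 by 2.47-fold and 2.74-fold, and the lower library of Oaz1 lay above the higher one of Oaz2. Oaz1 and Oaz2 together took 77.5% and 76.1% of the members' CPM. Their summed level was 11.5 and 12.8 times that of Odc1 and Azin1 summed, the members whose proteins antizymes bind. Azin2, a relative of Azin1 outside the 9 genes, is not in that sum and had 71.0 and 53.0 CPM. In bulk tissue, more cells of a type and more RNA per cell cannot be told apart.

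**Figure D1:**
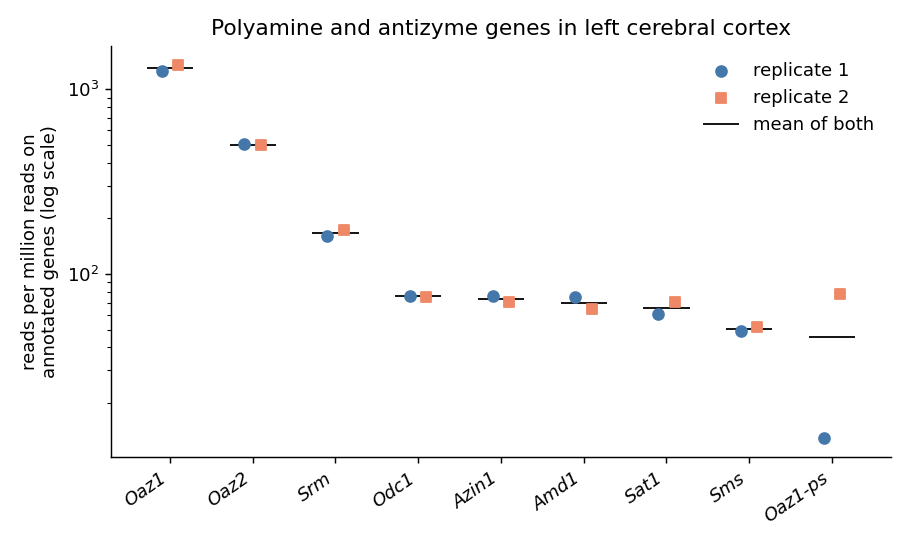
CPM of each gene (log axis) in replicate 1 (circles) and replicate 2 (squares), with the mean of both as a line. Oaz1 and Oaz2 stand above the rest, 5 genes lie between about the levels of Sms (50.3 CPM) and Odc1 (75.6 CPM), and Oaz1-ps is the gene whose libraries are far apart (12.9 and 78.0 CPM).

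No read of Oaz1 or Oaz2 lay on an annotated transcript. Each model carries a class: annotated transcript, incomplete splice match (part of an annotated chain of introns), new combination of annotated splice sites, at least 1 unannotated splice site, or genomic. For Oaz1, 0 of 969 and 0 of 925 reads were on annotated transcripts, which allows a share of up to 0.395% and 0.414% (Wilson 95% interval, counting error only). For Oaz2 it was 0 of 392 and 0 of 338 reads, an upper bound of 0.970% and 1.12%. The other 7 genes had 64.6% to 100% of their reads on annotated transcripts in either library. Oaz1 and Oaz2 were at places 2 and 4 by reads among the 139 of 6116 genes (2.27%), each with at least 20 reads in both libraries, that had none.

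**Figure D2:**
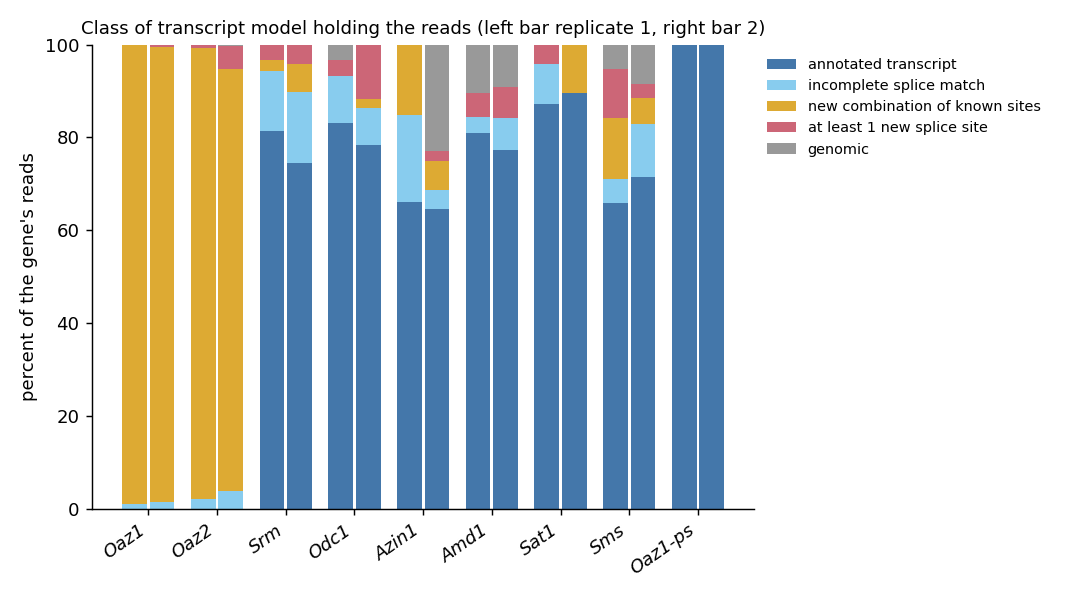
Percent of each gene's reads by class of transcript model, replicate 1 on the left and replicate 2 on the right of each pair. Oaz1 and Oaz2 have no annotated part and are nearly all new combinations of known sites, while annotated transcripts hold 64.6% or more of the reads of each other gene.

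The annotation cuts the frameshift exon at the T printed above. Oaz1-202, Oaz1-203 and Oaz1-207 leave out 1 base, chr10:80828295, which is the T of the capital TGA, and Oaz1-201 leaves out the 4 bases chr10:80828292-80828295. Oaz2-204 and Oaz2-206 leave out the corresponding T, chr9:65686272, and Oaz2-201 the 4 bases chr9:65686269-65686272. In the models, 968 of 969 and 924 of 925 Oaz1 reads crossed this place without a break, and the remaining read of each library did not cover it. For Oaz2, 386 of 392 and 325 of 338 reads crossed it unbroken, the others did not cover it, and 0 reads of either gene were on a model with the gap. The models give exons and not the bases of the reads, and no aligner is stated. Whether a gap of 1 or 4 bases in a read would be kept in its model is not known. These counts therefore do not show which bases the reads carried there. With annotated gaps of at most 10 nt closed before matching, a setting chosen after the data were seen, 97.6% (Wilson 95% interval 96.5 to 98.4) and 95.5% (93.9 to 96.6) of Oaz1 reads had the intron chain of an annotated transcript. The same step gave 92.1% and 88.2% for Oaz2. The leading Oaz1 chain was then that of Oaz1-201 and Oaz1-207, with 934 and 869 reads, and the leading Oaz2 chain that of Oaz2-201 and Oaz2-206, with 359 and 297. Gaps this short are rare in the annotation: 20 of the 6116 genes had a transcript with one, and 6 of these 20 (Rasgrf2, Dmtn, Oaz1, Oaz2, Rims1 and Trerf1) were among the 139 genes without annotated reads, while the rest had such reads. The testis antizyme Oaz3 has the same kind of 1-base gap in 5 annotated transcripts and had 0 reads here, below the limit of 3.87 and 4.42 CPM that a count of 0 allows.

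Apart from the frameshift place, Oaz1 was spliced in nearly 1 form. Its leading chain, 1069 nt long, held 96.4% and 93.9% of the reads, which is 95.2% over both libraries, against a median of 66.7% for the leading transcript of 6116 genes (quartiles 46.0% and 84.3%). The largest minor form used an annotated acceptor 22 nt further into the last exon, with 9 of 962 and 22 of 913 informative reads. That is 0.936% (Wilson 95% interval 0.493 to 1.77) and 2.41% (1.60 to 3.62). The transcript had an adjusted p of 0.759 (Fisher's exact test, Benjamini-Hochberg adjustment, unadjusted p = 0.0173), so the libraries were not told apart at this depth. An annotated acceptor 6 nt inside the second exon had 10 and 13 reads (1.04% and 1.41%), and the intervals of the 2 libraries overlapped. Both extra stretches are coding, at chr10:80828871-80828892 and chr10:80828237-80828242. Each is printed in capitals, as the bases that the downstream acceptor leaves out, after the end of the intron before it. The printed windows lie at chr10:80828867-80828896 for the first and chr10:80828221-80828250 for the second.
Oaz1, 22 nt: acagCCGCCCTACTCCGAACCTTCAGcttt
Oaz1, 6 nt: gcattgtttcctgcagTTCTAGggttgccc
Both capital stretches end in AG, as does the intron before each. The stretch of 22 nt is not a multiple of 3 and that of 6 nt is.

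The last intron of Oaz1, 74 nt at chr10:80828797-80828870, is in full the hairpin of the microRNA gene Mir1982 in both GENCODE and RefSeq (GRCm38.p6). Its mature products are shown with bases 2 to 8, the seed, in capitals.
mmu-miR-1982-5p: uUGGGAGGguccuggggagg
mmu-miR-1982-3p: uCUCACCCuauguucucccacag
The 3p product ends at the last base of the intron. The intron was removed in 953 of 959 reads of replicate 1 and 891 of 899 of replicate 2, and kept in 6 (0.626%) and 8 (0.890%). The other 3 Oaz1 introns were kept in 1 to 6 reads of replicate 1 and 0 to 5 of replicate 2, lower shares in both libraries, though in replicate 1 the second intron was also kept in 6 (0.620%). Small RNAs were not measured.

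Oaz2 was likewise spliced mainly in 1 form. Its leading chain, 1844 nt long, held 91.6% and 87.9% of the reads. An unannotated acceptor 3 nt inside the second exon was used in 13 of 384 and 14 of 323 informative reads, 3.39% (Wilson 95% interval 1.99 to 5.71) and 4.33% (2.60 to 7.14), so both libraries showed it at a like share. Its junction is printed with the 3 coding bases that the downstream acceptor leaves out in capitals.
Oaz2: cacccaggacagTAGtattttgccgtt
The main chain with this acceptor was the most abundant unannotated form of Oaz2 after the leading one, with 11 and 12 reads. The deposited tables class it as a new combination of known sites in replicate 1 and as holding an unannotated site in replicate 2. Skipping of the exon of 86 nt at chr9:65688821-65688906, which is coding and not a multiple of 3 in length, had 8 and 9 reads, so inclusion was 97.9% (95.9 to 98.9) and 97.2% (94.8 to 98.5). Of the Oaz2 reads, 1 in each library ended beyond the annotated gene, near chr9:65710280, through an unannotated junction from the same donor.

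Oaz1-ps is a processed pseudogene, a copy without introns, at chr17:17345456-17346140 on the minus strand. Its 685 bases aligned end to end to bases 105 to 789 of the leading Oaz1 model, from the start codon on, with 684 matches, 1 mismatch and 0 gaps (99.9% identity). The mismatch is G229C, counted from the 5′ end of the Oaz1 model (chr10:80826884): Oaz1 has the first base and Oaz1-ps the second. By the reference sequence, its reads and those of Oaz1 can therefore be told apart at 1 base only within the copied stretch. The mice also carry CAST alleles, whose bases were not examined. Which base a read carried is not part of the data used here.

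Oaz1-ps had 10 reads in replicate 1 and 53 in replicate 2, or 12.9 and 78.0 CPM, a mean of 45.5 ± 46.1 CPM (SD, n = 2). The log2 ratio of replicate 2 to replicate 1 was 2.51 ± 0.47 (counting SE, on CPM with a pseudocount of 1). The gene was selected on this difference. Of the parent's and pseudogene's reads summed, Oaz1-ps had 1.02% (Wilson 95% interval 0.556 to 1.87) and 5.42% (4.17 to 7.02). The sum itself was 979 reads in replicate 1 and 978 in replicate 2.

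Reads given to the model next to the pseudogene went the other way between the libraries. A model's coordinates need not be the extent of its reads, so which bases these reads covered is not known here. On the same strand, a single-exon model of 280 nt at chr17:17345177-17345456 shares 1 base with the 3′ end of Oaz1-ps. It is classed as genomic and given to the long noncoding RNA gene AC154200.1, inside whose intron at chr17:17342734-17357596 it lies. This model had 31 reads in replicate 1 and 0 in replicate 2. In a sum chosen after the data were seen, Oaz1-ps and this model together had 41 reads in replicate 1 and 53 in replicate 2, and the log2 ratio fell from 2.51 to 0.55 ± 0.30 (counting SE). The leading Oaz1 model has 280 bases beyond the aligned stretch, bases 790 to 1069 of the parent. The 280 nt of the adjoining model include the 1 base shared with Oaz1-ps, so the lengths beyond the copy are not equal. Whether the bases there match the parent was not analysed here.

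**Figure D3:**
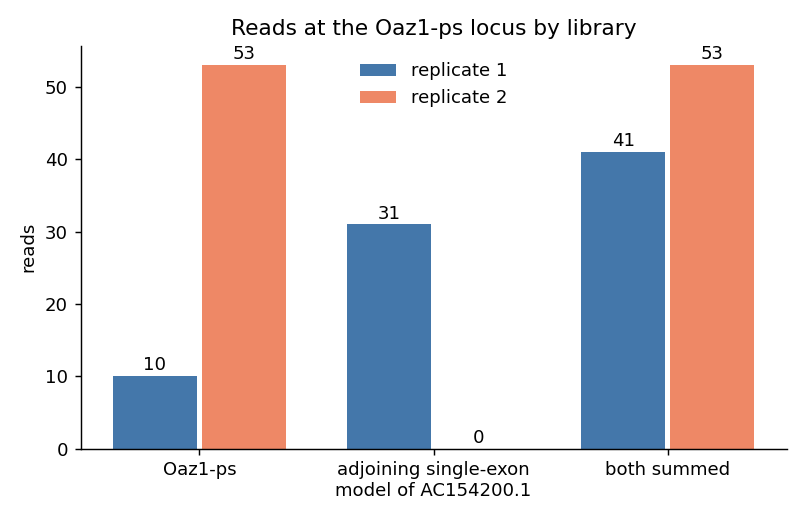
Reads at the pseudogene locus in replicate 1 and replicate 2 for Oaz1-ps, for the adjoining single-exon model of AC154200.1 and for both summed (bars from 0, reads printed above). The adjoining model has reads in replicate 1 only, 31 of them, and the sums are 41 and 53.

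Odc1 and Azin1, the enzyme that antizymes target and the protein that draws antizyme away from it, were at nearly the same level. Odc1 (chr12:17544794-17551505, plus strand) had 59 and 51 reads, 75.6 ± 0.758 CPM (SD, n = 2). Azin1 (chr15:38487427-38519266, minus strand) had 59 and 48 reads, 73.4 ± 3.88 CPM (SD, n = 2). The ratio of Odc1 to Azin1 was 1.00 in replicate 1 and 1.06 in replicate 2, and their ranges overlapped. Azin1 models averaged 3932 nt against 2091 nt for Odc1, so per kilobase of model Odc1 stood at 36.2 and Azin1 at 18.7 CPM per kb. The coding sequences of Odc1-201 and Azin1-201 aligned over 956 bases of Azin1 at 65.4% identity, with gaps counted as differences.

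Odc1-201, the annotated coding transcript of 12 exons, held 49 of 59 and 40 of 51 Odc1 reads. Its 2 unannotated events with more than 1 read were both seen in replicate 2 alone. An acceptor 3 nt downstream of the annotated one, in the untranslated leader, had 0 of 52 and 4 of 47 reads, 0% (Wilson 95% interval 0 to 6.88) and 8.51% (3.36 to 19.9). An extra exon of 58 nt at chr12:17545797-17545854 had 0 of 49 and 3 of 47 reads, 0% (0 to 7.27) and 6.38% (2.19 to 17.2). The intervals overlapped in both cases, and a difference between libraries was not tested for either. The stretch around the acceptor pair, chr12:17547267-17547296, is shown with the 3 bases at issue in capitals.
Odc1: gcttcccctgtttcagAAGcacatcgagaa

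Azin1-201, with 12 exons, held 37 of 59 and 31 of 48 Azin1 reads, 63.6% over both libraries, the lowest leading share of the 8 genes with introns. A further 8 reads in replicate 1 and 11 in replicate 2 were on single-exon models at the 3′ end of the gene. In replicate 2 all 11 were on a genomic model only 4 nt long, chr15:38488238-38488241, whose ends are both annotated 3′ ends of Azin1 transcripts; a model's coordinates are thus not the extent of its reads. An annotated acceptor 3 nt downstream in a coding exon was used in 8 of 50 and 4 of 35 informative reads, 16% (Wilson 95% interval 8.34 to 28.5) and 11.4% (4.54 to 26). This was the most used minor splice site among the 9 genes in replicate 1. The chain that differs from Azin1-201 at this place, with 5 and 2 reads, was the most abundant unannotated spliced form. The junction is printed with the 3 bases in capitals.
Azin1: tttcctctggagTAGaaaaaaatggga
In Azin1, Oaz2 and Odc1 alike the 3 bases end in AG, the letters at the 3′ end of nearly all introns. An annotated exon of 160 nt at chr15:38507187-38507346 was included in 2 of 48 and 0 of 34 reads.

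**Figure D4:**
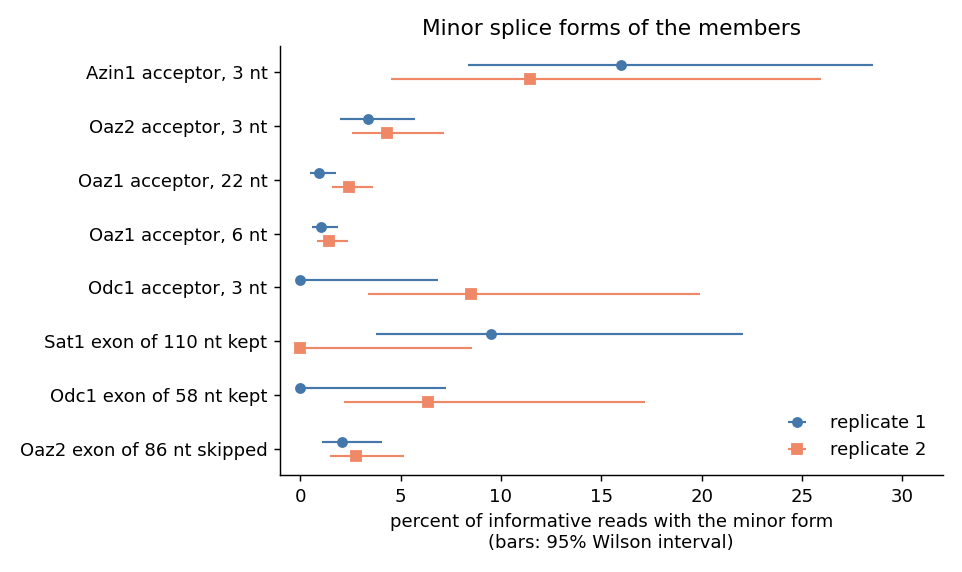
Percent of informative reads with the minor splice form of Azin1, Oaz2, Oaz1, Odc1 and Sat1 in replicate 1 (circles) and replicate 2 (squares), with 95% Wilson intervals. The forms of Azin1, Oaz2 and Oaz1 appear in both libraries, and the 2 Odc1 forms and the Sat1 exon kept whole in 1 library each; the acceptor of the Sat1 exon was used in both.

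The enzymes of synthesis other than Odc1 differed in level. Srm (chr4:148591503-148594993, plus strand) had 124 and 118 reads, 167 ± 9.67 CPM (SD, n = 2). Amd1 (chr10:40287458-40302186, minus strand) had 58 and 44 reads, 69.8 ± 7.13 CPM (SD, n = 2). Sms (chrX:157443855-157492287, minus strand) had 38 and 35 reads, 50.3 ± 1.75 CPM (SD, n = 2). Srm exceeded Sms by 3.26-fold in replicate 1 and 3.37-fold in replicate 2, more than the spread of either gene. Amd1, at 74.9 and 64.8 CPM, lay below Odc1, at 76.2 and 75.1 CPM, on 58 and 44 against 59 and 51 reads. Amd1 has a near copy, Amd2, whose annotated transcript aligned to Amd1-201 over 3202 bases at 99.6% identity, so reads of these 2 genes could be exchanged. Amd2 had 48 and 25 reads.

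Srm-201, with 7 exons, held 101 of 124 and 88 of 118 Srm reads. Some Srm reads ran on into the next gene on the strand, Masp2 (chr4:148602554-148615499), which encodes a protease of the complement system: 3 reads in replicate 1 and 10 in replicate 2, 2.42% (Wilson 95% interval 0.826 to 6.87) and 8.47% (4.67 to 14.9) of Srm reads. All 13 used the annotated start of a Masp2 exon, while Masp2 itself had 0 and 1 reads. A further 0 and 2 reads given to Srm were on models at Masp2 alone. The models of 0 and 9 reads spanned the second intron of Srm without removing it, the 9 being an incomplete match whose chain of introns also had 5 reads in replicate 1, in a model that starts after that intron. That chain had 4.03% and 7.63% of Srm reads, which were not told apart (adjusted p = 1, Fisher's exact test, Benjamini-Hochberg adjustment).

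Amd1-201, with 8 exons, held 47 of 58 and 34 of 44 Amd1 reads. Single-exon genomic models had 6 and 4 Amd1 reads, 9.80% over both libraries. Of these, 4 in replicate 1 were on models with an unannotated 3′ end at chr10:40299076, inside the first intron. In replicate 2, 1 had an unannotated 3′ end at chr10:40302057, in the first exon. An unannotated donor 165 nt further into the first intron had 1 and 3 reads, in the most abundant unannotated spliced form of Amd1. Sms-201, with 11 exons, held 24 of 38 and 25 of 35 Sms reads. Its sixth intron, 759 nt at chrX:157460417-157461175, was kept in 2 of 35 and 3 of 30 informative reads. Single-exon genomic models of Sms had 2 and 3 reads, 6.85% over both libraries, and no unannotated spliced form had more than 3 reads over both. Among Sms reads outside annotated transcripts, 5 and 4 were on models with an annotated 3′ end at chrX:157445696.

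Sat1, the rate-limiting enzyme of polyamine breakdown (chrX:155213132-155216449, minus strand), had 47 and 48 reads, 65.7 ± 7.07 CPM (SD, n = 2). Srm exceeded it by 2.64-fold and 2.46-fold. Sat1-201, the coding transcript of 6 exons, held 37 of 47 and 41 of 48 reads. The annotated nonsense-mediated decay transcript Sat1-207, which holds an extra exon of 110 nt at chrX:155215121-155215230, had 4 reads in replicate 1 and 0 in replicate 2. The whole exon was thus in 9.52% (Wilson 95% interval 3.77 to 22.1) of 42 informative reads and in 0% (0 to 8.57) of 41, and the intervals overlapped. The acceptor at which the exon begins was used in both libraries, in 4 of 42 and 2 of 43 reads, 9.52% and 4.65% (1.28 to 15.5); the 2 reads of replicate 2 ran on from it without the exon's donor. The exon is shown from its first base to the stop codon, in capitals, that it brings into the frame (chrX:155215217-155215230, minus strand).
Sat1: gttacagtctcTAG
The stop falls 14 bases into the exon, which leaves 71 codons in place of the 171 of Sat1-201. The third intron, in which this exon lies, was kept whole in 1 of 39 and 3 of 44 reads, 2.56% and 6.82%; the form with the most reads among unannotated ones, 0 and 3, carried it.

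In the order of mean CPM (Oaz1, Oaz2, Srm, Odc1, Azin1, Amd1, Sat1, Sms, Oaz1-ps), the ranges over the 2 libraries did not overlap between Oaz1 and Oaz2, Oaz2 and Srm, Srm and Odc1, or Sat1 and Sms. They overlapped between Odc1 and Azin1, Azin1 and Amd1, Amd1 and Sat1, and Sms and Oaz1-ps. CPM was not divided by length in this order, on the assumption that each long read stands for 1 molecule, which was not tested. Per kilobase of model, the first 3 kept their places and the rest were ordered Oaz1-ps, Sat1, Odc1, Amd1, Azin1 and Sms.

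Between the libraries, 182 of 9143 genes with at least 20 reads differed beyond counting error (1.99%, exact binomial test, adjusted p under 0.05). Of the 9 members 1 was called, Oaz1-ps, which was chosen for it. The other 8 had log2 ratios of replicate 2 to replicate 1 from -0.21 (Amd1) to 0.22 (Sat1), with a median of 0.02 against 0.03 for all genes tested. Transcript shares within a gene were not used in choosing the members. Of 22 member transcripts tested, in 8 genes, 0 were called, against 32 of 20307 in all (0.158%). An unadjusted p under 0.05 by Fisher's exact test was found for 3 of the 22. All 3 were forms of Oaz1, whose shares depend on each other, and the share of all 20307 transcripts under that p was not counted. The lowest adjusted p among the 22 was 0.733. No cassette exon of a member met both limits for a test, 20 informative reads in each library and 5% to 95% inclusion over both. The exons of Oaz2, Odc1, Azin1 and Sat1 named above had the reads but lay outside that range. Of all exons tested, 1 of 1519 was called (0.0658%).

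The wider pathway was taken from 23 genes listed by role, of which 21 had reads and 17 had at least 10. Of 14 tested, 0 passed the threshold between libraries in either direction by the exact binomial test, against 1.99% of all genes. Mat2a and Amd2 had an unadjusted p under 0.05 by that test, and the share of all genes under that p was not counted. The median log2 ratio of the 14 was -0.10. Eif5a, the translation factor that carries hypusine, an amino acid made from spermidine, was the most abundant of them, with 598 and 491 reads (747 ± 34.7 CPM, SD, n = 2). Its relative Eif5a2 had 32 and 26 reads. Of the enzymes that make hypusine, Dohh had 164 and 122 reads and Dhps 58 and 44. Mat2b and Mat2a, subunits of the enzyme that makes S-adenosylmethionine, had 291 and 218 and 202 and 223 reads. Mtap, which recycles the by-product of Srm and Sms, had 12 and 11.

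Of the transport genes, Atp13a2, a lysosomal polyamine exporter, had 167 and 162 reads and Slc3a2, the heavy chain of amino acid transporters, 177 and 145. Slc18b1 had 13 and 12 reads, Atp13a3 9 and 12, and the arginine transporter Slc7a1 4 and 6. Smox, which oxidises spermine, had 60 and 58 reads, or 77.5 and 85.4 CPM, above the range of Sat1 (60.7 and 70.7 CPM), whereas Paox, which oxidises acetylated polyamines, had 5 and 5. Azin2, a relative of Azin1, had 55 and 36 reads, which is 71.0 and 53.0 CPM beside 76.2 and 70.7 CPM for Azin1. Agmat had 5 and 7. Arg1, Arg2, Sat2 and Slc7a2 had fewer than 10 reads in all, and Oaz3 and Satl1 had 0.

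**Figure D5:**
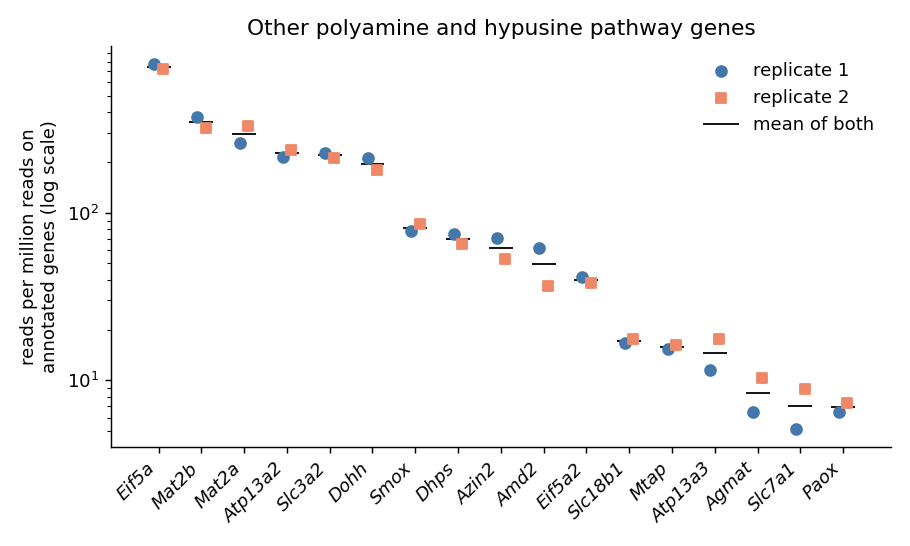
CPM (log axis) of the 17 other pathway genes with at least 10 reads, in replicate 1 (circles) and replicate 2 (squares), with the mean of both as a line. Eif5a is highest at 747 CPM, 5 further genes lie between 196 and 348 CPM, and Paox is lowest at 6.91 CPM.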

How the data were processed

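Per the deposited tables, values are read counts per transcript model, 1 table and 1 gene model file for each library, on mm10 with GENCODE M21; per the file headers the models come from TALON. No aligner, version or filter is given in the sources used here. Members and gene lists were chosen with earlier results of these data known. Reads were summed per annotated gene over all model classes and divided by the reads on annotated genes (774629 and 679147, without spike-ins, which were 1.58% and 1.33% of reads); 1 read is about 1.29 or 1.47 CPM. With 1 group of 2 libraries no dispersion can be estimated, so reads per gene were compared by a two-sided exact binomial test (at least 20 reads), transcript shares by Fisher's exact test (genes with 20 reads in each library, transcripts with 5) and cassette exons by Fisher's exact test (20 informative reads in each library, 5% to 95% inclusion), each with Benjamini-Hochberg adjustment over all features; these cover counting error only. Unannotated spliced models were matched between libraries by intron chain. Text names every member, its transcripts with at least 5% of reads, exons with 5 reads on the rarer side and leading unannotated form, and pathway genes with 10 reads; other forms named were picked after their values were seen. Sequences were aligned with Biopython 1.88. Tests were run in scipy 1.17.1 and checked on simulated counts; edgeR 4.0.16 and DESeq2 1.42.0 gave alternative scalings.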

Additional observations from a re-analysis of the deposited data

Results flagged for a closer look

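Reads on the strand opposite to a member, which enter no comparison above, exceeded the 3 reads that a count of 0 allows at 5 loci. Azin1 had 13 such reads in replicate 1 and 23 in replicate 2, some given to the annotated gene Gm49077. Sat1 had 6 and 9, Sms had 6 and 6, Srm had 0 and 10, and Oaz2 had 1 and 6. Nearly all were on single-exon models; 1 spliced read at Azin1 and 3 at Sms were the exceptions. Across the mouse reads, antisense models also took more in replicate 2 (16.9%) than in replicate 1 (8.85%). The part of that difference in these counts was not tested.

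The single-exon model of AC154200.1 that adjoins Oaz1-ps had 31 reads in replicate 1 and 0 in replicate 2, as given with the pseudogene above. A test of the difference would rest on the contrast by which Oaz1-ps was chosen, so none was run.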

How the results depend on the processing

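The summed level of the 9 genes was 2356 ± 125 CPM (SD, n = 2) and lay between 2267 and 2444 CPM with either library left out. It was 624 CPM when only reads on annotated transcripts were counted, since Oaz1 and Oaz2 then have none, and 2613 CPM on multi-exon models only, where the total is smaller and Oaz1-ps is left out. Genes called between libraries numbered 182, and 55 with annotated transcripts only or 78 with multi-exon models only; under DESeq2 size factors 90 of 243 called genes were higher in replicate 2, against 115 of 182. Oaz1-ps was the called member under every scaling, filter and read set tried except multi-exon models, which leave it out. Since it was selected on this difference, these calls are a description and give no support of their own. With the adjoining single-exon model added, its log2 ratio moved from 2.51 to 0.55 ± 0.30 (counting SE). Adding the model class to the intron chain raised the transcripts called from 32 to 225, 1 of them the Oaz2 form that the tables class differently in each library. With at least 10 informative reads 0 of 2623 cassette exons were called. Leaving out incomplete splice matches and genomic models, an alternative chosen after seeing the data, kept the shares of the minor acceptors of Oaz1, Oaz2 and Azin1 and of the acceptor of the Sat1 exon, over both libraries, within their intervals. The log2 ratios of 2 uncalled genes changed sign, Odc1 from -0.02 to 0.07 on multi-exon models and Sms from 0.07 to -0.0067 under DESeq2 size factors, both within the counting SE. Sms, Sat1, Amd1, Azin1 and Odc1 have 35 to 59 reads in a library, so minor forms under a few percent are below what these libraries can show.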
